A study of Danio rerio with 6 samples.

Results

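The small RNA libraries of zebrafish ovarian follicular cells held 31 miRNAs whose names carry the prefix of another species. They were taken as every listed miRNA whose name begins with neither dre-, the zebrafish prefix, nor PC-, the prefix of wholly predicted miRNAs, and they made up 31 of the 289 listed miRNAs, beside 214 dre- and 44 PC- rows. Follicular cells are the somatic layer around the oocyte. They were removed with forceps from vitellogenic follicles sorted by size into stage IIIa, the smaller, and stage IIIb, the larger, with 3 samples of each stage. All fish were females from a local supplier with no treatment named, each sample pooled follicles of several fish, and neither the strain nor the age of the fish was given in the sources used here. A sample is therefore a pool, and the spread between samples is a spread between pools.

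A miRNA precursor folds into a hairpin, and Dicer cuts from it a duplex with 1 strand from the 5′ arm and 1 from the 3′ arm. Usually the guide strand is loaded into Argonaute and kept, and the other, the passenger strand, is mostly lost, although both can be read by sequencing. The seed, bases 2 to 8 of the mature strand, does most of the pairing with target mRNAs. Mature strands are often the same from fish to mammals. A read that was not assigned to a listed zebrafish precursor can therefore be assigned to the precursor of another animal and named after it. The prefix thus names the species of that precursor and not where the RNA came from. It does not mean that no dre- miRNA was as close, as the sequences below show.

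The 31 miRNAs carried 15 prefixes. Atlantic salmon (ssa) gave 5, rabbit (ocu) and channel catfish (ipu) gave 4 each, common carp (ccr) and green anole (aca) gave 3 each, and African clawed frog (xla) and olive flounder (pol) gave 2 each. Opossum (mdo), big brown bat (efu), painted turtle (cpi), the sea squirt Ciona (cin), medaka (ola), king cobra (oha), greater galago (oga) and zebra finch (tgu) gave 1 each. Bony fish were the source of 15 of them, other vertebrates of 15 and a tunicate of 1. The median of the mean normalized counts was 183.7 for the 15 with a fish prefix and 131.8 for the other 16. The mature sequences were 18 to 24 nt long, 14 of them of 22 nt, and 15 lay on the 5′ arm and 16 on the 3′ arm of the precursor that the study lists for them.

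Compared with the mature sequences of the dre- rows, the miRNAs fell into 3 groups. Of the 31, 11 lay on the same strand as a dre- miRNA. This means an ungapped overlap of at least 15 bases, at most 3 mismatches and a start shifted by at most 6 bases. A further 17 overlapped no dre- row but came from a precursor that holds a listed dre- miRNA on its other arm, and 3 had neither. Altogether 26 had a dre- miRNA on the other arm, in 22 of them at 0 mismatches, and 7 shared a seed with a dre- row. Median mean counts were 86.0 in the same-strand group, 190.6 in the group with the other arm only and 180.8 in the group with neither.

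The same-strand sequences are printed beside the dre- miRNA each one overlaps, since the names alone hide how little separates them. All sequences are in the DNA letters of the deposited files, 5′ to 3′, with the seed in capitals.
mdo-miR-29a-3p: tAGCACCAtttgaaatcggtt
ipu-mir-29a-p3: cTAGCACCatttgaaatcggtc
dre-miR-29a: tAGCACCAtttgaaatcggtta
aca-miR-30a-5p: tGTAAACAtcctcgactggaag
dre-miR-30d: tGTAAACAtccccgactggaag
ipu-miR-30d: cTTTCAGTtggatgtttgctgt
dre-miR-30e-3p: cTTTCAGTcggatgtttgcagc
ccr-mir-22a-p5: aGTTCTTCtctggcaaacttta
dre-miR-22a-5p: aGTTCTTCactggcaagcttta
ocu-miR-24-5p: gTGCCTACtgagctgatatcagt
dre-miR-24b-5p: gTGCCTACtgagctgataacagt
oha-miR-26-3-3p: cCTATTCTtgattacttg
dre-miR-26a-2-3p: cCTATTCAtgattacttgcact
ssa-miR-148a-5p: aAGTTCTGtgatacacttcgact
dre-mir-152-p5: aAGTTCTGtgatacactcagact
tgu-miR-19a-3p: tGTGCAAAtctatgcaaagc
dre-miR-19a-3p: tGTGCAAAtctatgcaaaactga
cin-miR-199-3p: aCAGTAGTctgcacattgggtg
dre-miR-199-3p: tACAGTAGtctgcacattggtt
oga-mir-100-p5: cGTAGATCcgaacttgtga
dre-miR-100-5p: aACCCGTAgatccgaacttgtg

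Differences are given as the base of the dre- miRNA, its position from base 1 of that miRNA and the base of the foreign-named miRNA. The opossum-named mdo-miR-29a-3p had no difference from dre-miR-29a and was 1 base shorter at its 3′ end. The catfish-named ipu-mir-29a-p3 began 1 base earlier and had T21C, so that its seed was shifted by 1 base against that of dre-miR-29a. Over the shared bases, a single base separated aca-miR-30a-5p from dre-miR-30d (C12T), ocu-miR-24-5p from dre-miR-24b-5p (A19T) and tgu-miR-19a-3p from dre-miR-19a-3p (A19G), all outside the seed. The last of these, tgu-miR-19a-3p, was also 3 bases shorter at its 3′ end. In oha-miR-26-3-3p the single difference from dre-miR-26a-2-3p over the shared bases, A8T, lay in the last base of the seed. It was also 4 bases shorter at its 3′ end. The carp-named ccr-mir-22a-p5 had A9T and G17A against dre-miR-22a-5p, ssa-miR-148a-5p had C18T and A19C against dre-mir-152-p5, and ipu-miR-30d had C9T, A20T and C22T against dre-miR-30e-3p. Sequences that began later were cin-miR-199-3p, 1 base into dre-miR-199-3p with T21G, and oga-mir-100-p5, 4 bases into dre-miR-100-5p with no difference over 18 shared bases. These 2, the shifted ipu-mir-29a-p3 and oha-miR-26-3-3p did not keep the seed of their dre- miRNA.

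Among the miRNAs with the other arm only, the 6 let-7 3′ arms form the largest family. They are shown because they begin with the same 7 bases, CTATACA, and differ after them. The guide strand dre-let-7a, from the 5′ arm, is printed beside them.
aca-let-7a-2-3p: cTATACAGtctattgccttcct
ocu-let-7a-3p: cTATACAAtctactgtctttcc
ola-let-7a-3p: cTATACAActtactgtctttc
pol-let-7b-3p: cTATACAAcctactgccttcc
ssa-let-7h-3p: cTATACAActtactgccttcct
ocu-let-7f-2-3p: cTATACAGtctactgtctttcc
dre-let-7a: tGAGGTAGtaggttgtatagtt

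In the listed positions, which are in GRCz11 coordinates as the submitters' processing notes name that build, these let-7 strands sat close together in 2 places. The precursors of ocu-let-7a-3p at chr4:18654155-18654261 and pol-let-7b-3p at chr4:18653148-18653241, both on the minus strand, were 913 bp apart. Those of ocu-let-7f-2-3p at chr23:28536361-28536457 and ssa-let-7h-3p at chr23:28536665-28536778, on the plus strand, were 207 bp apart. The precursor of oga-mir-100-p5, at chr15:29795594-29795654, lay within the interval listed for dre-miR-99-1-p3. The listed interval was as long as the listed precursor for 3 of the 31, so positions are given as listed and no gene annotation was set against them.

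The next strands matter for the stage comparison or stand high against their partner, each shown with the dre- miRNA matched to its other arm. For ocu-miR-130b-5p that match had 1 mismatch.
ccr-mir-734-p5: tCCTTTGAtattgagagct
dre-miR-734: gTAAATGCtgcagaatcgtaccg
ocu-miR-130b-5p: aCTCTTTCcctgttgcactact
dre-miR-130b: cAGTGCAAtaatgaaagggcat
ipu-miR-223: gAGTATTTgacagactgtgg
dre-miR-223: tGTCAGTTtgtcaaatacccc

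The 3 miRNAs with neither a same-strand nor an other-arm dre- row were ccr-mir-738-p5, efu-mir-9277-p3 and ipu-miR-7550.
ccr-mir-738-p5: cGCGTCGGgacctccgtc
efu-mir-9277-p3: tCCCCGCGcaggttcgaatcct
ipu-miR-7550: aTCCGGCTcgaaggacca

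The carp-named ccr-mir-738-p5 shared its first 14 bases with dre-miR-738, 1 base below the minimum. The run started at base 10 of dre-miR-738, which was also past the largest shift allowed, 6 bases. Both lie on the 5′ side of the same listed precursor, dre-miR-738 at its base 1 and ccr-mir-738-p5 at its base 10, at chr5:821403-821489 on the minus strand. The bat-named efu-mir-9277-p3, at chr3:8975708-8975785 on the minus strand, held the letters GTTCGANNC, the core of the B box, an internal promoter element of tRNA genes. The letters were searched on the listed strand and on its reverse complement. On either strand, 1 of the 289 mature sequences (0.346%) and 2 of 89 precursors of miRNAs not annotated in zebrafish (2.25%) held them. The catfish-named ipu-miR-7550, at chr13:37556934-37556988 on the minus strand, ended in CCA, the letters found at the 3′ end of mature tRNAs, as did 4 of the 289 mature sequences (1.38%). Folded with RNAfold, the precursor of ipu-miR-7550 had the weakest minimum free energy of the 31, -10.4 kcal/mol, and that of ccr-mir-738-p5 the strongest, -63.9 kcal/mol. The methods of the study give a free energy cutoff for predicted hairpins, and -10.4 kcal/mol is weaker than that cutoff. Whether the cutoff was applied to this precursor is not clear from the methods. Precursors of different length were folded as listed, and 30 of the 31 gave a fold with 1 hairpin loop.

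Depth differed between samples. Reads recovered from the values as described under the processing, summed over the 289 listed miRNAs, were 1129114 in stage IIIa replicate 1 and 9045233 in stage IIIb replicate 3. These were the lowest and highest of the 6. No member was at 0 in any sample. Together the 31 miRNAs took 0.384% ± 0.0468 (SD, n = 6) of the normalized counts. The share was 0.400% ± 0.0669 over the IIIa samples and 0.369% ± 0.0173 over the IIIb samples (SD, n = 3 each), and the stages were not told apart (exact permutation test, two-sided, p = 0.5, where the smallest p that 3 against 3 allows is 0.1).

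The salmon-named ssa-miR-148a-5p, the 5′ arm of the miR-148 hairpin, had the highest mean, 1220.4 normalized counts, and stood at rank 94 of the 289. Its counts were 1598, 515 and 1151 in stage IIIa and 1406, 1929 and 723 in stage IIIb, so the stages overlapped widely. Next came pol-let-7b-3p with a mean of 803, aca-let-7a-2-3p with 712, ocu-miR-130b-5p with 670.4, ocu-let-7a-3p with 658, ipu-miR-30d with 653, ola-let-7a-3p with 559 and xla-miR-143-5p with 449. Of these 8, 4 were let-7 3′ arms. The middle of the range ran from ipu-mir-29a-p3 at 246.0 over ssa-let-7h-3p, cpi-miR-218-3p, xla-miR-214-5p, ssa-miR-101b-5p, ipu-miR-7550, ccr-mir-738-p5, ssa-miR-218-3p, ocu-let-7f-2-3p, ccr-mir-22a-p5, aca-miR-101-1-5p and pol-miR-21-3p to mdo-miR-29a-3p at 128.3. Below 100 lay ocu-miR-24-5p, ccr-mir-734-p5, ipu-miR-223, oha-miR-26-3-3p, efu-mir-9277-p3, tgu-miR-19a-3p, aca-miR-30a-5p, cin-miR-199-3p, ssa-miR-130b-2-5p and oga-mir-100-p5, from 86.0 down to 28.4. As background, miR-143 is known from smooth muscle, miR-199 and miR-214 from mesenchyme, miR-223 from myeloid cells, miR-19 as part of a cluster that promotes proliferation, and miR-101 in mammals as a repressor of the histone methyltransferase Ezh2. The 10 highest held 71.8% ± 2.82 (SD, n = 6) of all counts on the 31. Counts of neighbours in this order overlapped between samples, for example 505.7 to 1077 for ocu-miR-130b-5p and 420.6 to 866 for ocu-let-7a-3p.

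**Figure D1:**
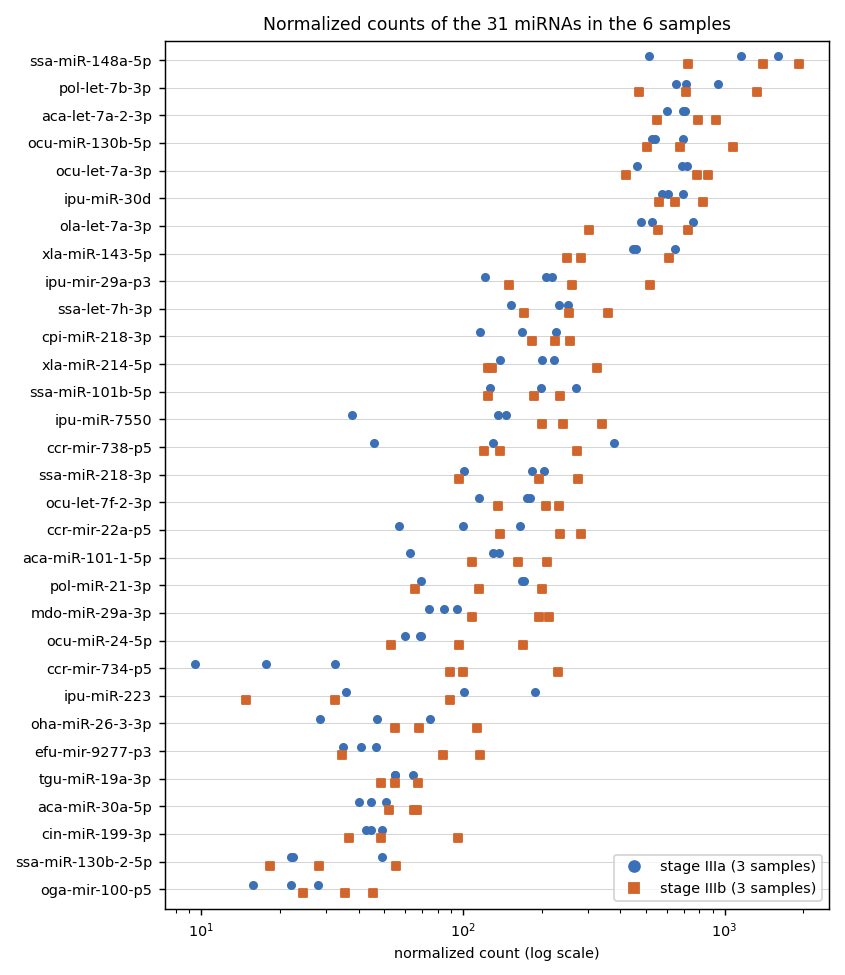
Normalized counts (log scale) of the 31 miRNAs in each of the 6 samples, ordered by mean, with circles for stage IIIa and squares for stage IIIb. Means run from 1220.4 for ssa-miR-148a-5p to 28.4 for oga-mir-100-p5, and the circles lie wholly to the left of the squares for 4 miRNAs.

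Not every value was a whole number of recovered reads. In 8 of the 31, at least 1 sample gave a fraction of a read, and aca-let-7a-2-3p was whole in 0 of 6 samples. The others were ocu-let-7a-3p, cpi-miR-218-3p, ssa-miR-218-3p, cin-miR-199-3p, oga-mir-100-p5, aca-miR-30a-5p and ssa-miR-148a-5p. For comparison, 91 of the 214 dre- rows and 13 of the 44 PC- rows had such fractions. How reads that fit more than 1 miRNA were shared was not given in the sources used here, so the levels of these 8, and of the near-identical pairs printed above, depend on how the reads were assigned.

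Measured against the dre- miRNA on its other arm within the same sample, the foreign-named strand was the lower one in all 6 samples for 24 of 26 pairs. The median of the 26 mean log2 ratios was -4.36, which is 4.87%. Among 40 pairs of dre- rows with both arms listed, the lower arm stood at a median of 6.01% of the higher, with a range from 0.0593% to 95.8%. The values of the 40 also come from mean log2 ratios, after 1 was added to each count. Under 1% lay 7 of the 26 and 8 of the 40 pairs. The 40 were ordered by their own level, lower over higher, while the 26 were ordered by name.

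The 2 exceptions were both miR-29a 3′ arms, set against dre-mir-29a-p5, which is itself the rarer arm of its hairpin at a mean of 246.0 normalized counts against 2988 for dre-miR-29a. Their listed precursors held dre-mir-29a-p5 only with 2 mismatches, the most of any pair. It is therefore not shown to be the other arm of their own hairpins. In stage IIIa ipu-mir-29a-p3 stood at 226.5%, 251.6% and 281% of dre-mir-29a-p5, and in stage IIIb at 58.2%, 85.7% and 65.2%. For mdo-miR-29a-3p the ratios were 176.5%, 84.9% and 115.3% in stage IIIa and 41.8%, 32.3% and 53.3% in stage IIIb. Both ratios were therefore lower in every stage IIIb sample than in any stage IIIa sample. Next in order was ocu-miR-130b-5p at 39.2% of dre-miR-130b, with a range over the samples from 32.7% to 48.5%, followed by ssa-miR-148a-5p at 34.8% of dre-miR-148. This order held only for the single best counterpart. With dre-miR-130a added to dre-miR-130b, the mean log2 ratio of ocu-miR-130b-5p went from -1.36 to -2.91, below the -1.59 of ssa-miR-148a-5p. The listed precursor of ocu-miR-130b-5p held dre-miR-130b with 1 mismatch, so dre-miR-130b is not shown to be the other arm of that hairpin.

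At the other end, oha-miR-26-3-3p reached 0.0477% of dre-miR-26a-5p, ccr-mir-22a-p5 0.0990% of dre-miR-22a-3p and pol-miR-21-3p 0.137% of dre-miR-21. The partners are among the guides that follicular cells held in quantity, with mean counts of 133766, 172750 and 100587. In single samples these 3 ratios ran from 0.0369% to 0.0691%, from 0.0786% to 0.142% and from 0.0653% to 0.240%. Other listed passenger strands were dre-miR-26a-3p (mean 143.2) and dre-miR-26a-2-3p (34.2) for miR-26a, and dre-miR-22a-5p (566) for miR-22a. A guide may come from several precursors, so these ratios are not shown to be arm ratios of a member's own hairpin.

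**Figure D2:**
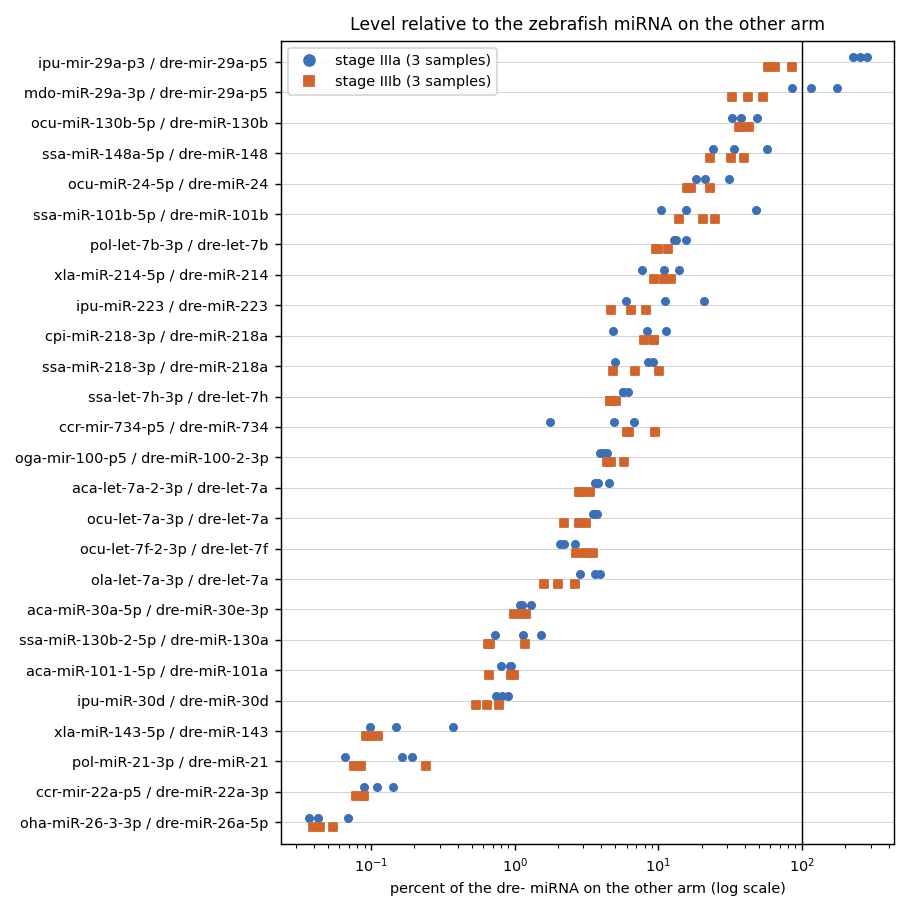
Level of each foreign-named miRNA as a percent (log scale) of the dre- miRNA matched to the other arm of its precursor in the same sample, for 26 pairs, with circles for stage IIIa, squares for stage IIIb and a vertical line at 100%. The 2 miR-29a pairs, matched with 2 mismatches, alone reach past the line, and oha-miR-26-3-3p lies lowest at a mean of 0.0477%.

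The let-7 guides, known as brakes on proliferation and markers of differentiated cells, were far above the let-7 3′ arms among the 31. The 6 foreign-named let-7 3′ arms summed to 3.30% ± 0.375 (SD, n = 6) of the 9 listed let-7 guides and took 36.1% ± 5.23 of the counts on all 31 miRNAs. A let-7 3′ arm with a dre- name, dre-let-7j-p3, is not in this sum. It had a mean of 2175 normalized counts and stood at 28.4% of dre-let-7j, by the mean log2 ratio. By member, pol-let-7b-3p stood highest at 12.2% of dre-let-7b, followed by ssa-let-7h-3p at 5.29% of dre-let-7h. The other 4 were aca-let-7a-2-3p at 3.49%, ocu-let-7a-3p at 3.17% and ola-let-7a-3p at 2.76% of dre-let-7a and ocu-let-7f-2-3p at 2.69% of dre-let-7f. Mature dre-let-7a can come from several precursors, so 3 of these ratios share 1 denominator. With dre- rows of 1 mismatch more added to the denominator, the mean log2 ratio of ocu-let-7f-2-3p went from -5.24 to -8.53, where dre-let-7e and dre-let-7a were added, and those of the 3 let-7a strands went to between -5.36 and -5.75.

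On the same strand, 8 of the 11 were lower than their dre- miRNA in all 6 samples and 2 were higher in all 6. The 2 were ocu-miR-24-5p, at 308% of dre-miR-24b-5p with a range from 151.8% to 633%, and oha-miR-26-3-3p, at 181.4% of dre-miR-26a-2-3p with a range from 120.0% to 228.3%. In both cases the dre- miRNA was a rare passenger strand, with mean counts of 35.5 and 34.2. The salmon-named ssa-miR-148a-5p was above dre-mir-152-p5 in 4 samples and below it in 2, at a mean of 126.6%.

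The other same-strand miRNAs had a more abundant dre- partner. The ratio was 30.5% for ccr-mir-22a-p5 against dre-miR-22a-5p, 14.3% for ipu-miR-30d against dre-miR-30e-3p, 9.48% for ipu-mir-29a-p3 and 4.85% for mdo-miR-29a-3p against dre-miR-29a. It was 2.72% for tgu-miR-19a-3p against dre-miR-19a-3p and 1.24% for cin-miR-199-3p against dre-miR-199-3p. The lowest were oga-mir-100-p5, at 0.113% of dre-miR-100-5p, and aca-miR-30a-5p, at 0.0595% of dre-miR-30d. These last 2 differ from an abundant guide by a later start or by 1 base, and they lay at 28.4 and 53.3 normalized counts against 24907 and 92026. Against dre-miR-30e-5p, which is also 1 base away, aca-miR-30a-5p stood at 0.158%.

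Outside the overlap and shift limits, ccr-mir-738-p5 was above dre-miR-738 in all 6 samples. Its counts were 378.2, 45.5 and 130.1 in stage IIIa and 272.6, 120.3 and 138.3 in stage IIIb, against 17.3, 30.2 and 59.7 and 97.5, 49.8 and 35.4 for dre-miR-738. The highest and the lowest count of ccr-mir-738-p5 both fell in stage IIIa.

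Ratios that stayed closest over the 6 samples, by the SD of the log2 ratio, were those of aca-miR-30a-5p to dre-miR-30e-3p (SD 0.13), ssa-let-7h-3p to dre-let-7h (SD 0.18) and oga-mir-100-p5 to dre-miR-100-2-3p (SD 0.20). The listed precursor of oga-mir-100-p5 held dre-miR-100-2-3p with 1 mismatch and lay within the interval listed for dre-miR-99-1-p3. So dre-miR-100-2-3p is not shown to be the other arm of its own hairpin. Over the 26 other-arm pairs the median SD of the log2 ratio was 0.35, below the median SD of 0.56 of the members' own log2 counts, and the ratio varied less than the member itself in 18 of 26. Ratios within a sample are free of the scaling between samples, which both terms share, while the members' own SD includes it. Ratios to unrelated dre- rows were not taken. The smaller SD is therefore not shown to be particular to the matched arms.

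The stages were compared with limma on log2(normalized count + 1), stage IIIb over stage IIIa, with Benjamini-Hochberg adjustment over all 289 miRNAs. At an adjusted p under 0.05, 1 of the 31 changed and it was higher in stage IIIb, which is 3.23% against 4.5% of all miRNAs called and 2.42% called higher. At an unadjusted p of 0.05 or less there were 4, all higher in stage IIIb, which is 12.9% against 14.9% of all miRNAs and 9.69% higher. The 4 became 1 without stage IIIa replicate 1 and 2 without stage IIIa replicate 3 or stage IIIb replicate 2. Without stage IIIb replicate 3 there were 2 higher, ccr-mir-734-p5 and ipu-miR-7550, and 2 lower, ipu-miR-223 and xla-miR-143-5p. The counts of the 2 stages did not overlap for 4 of the 31, 12.9% against a background of 19.7%. These shares lie near the background and are no result about the 31 as a group. Pools hold mixed cells, and fewer cells of a type cannot be told apart from less RNA per cell.

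Some marker miRNAs of other cells moved with the stages. The 5 red blood cell miRNAs, all called lower in stage IIIb, summed to 18554 to 31524 in the stage IIIa samples and 2831 to 5028 in stage IIIb, none of them at 0. The sum of the 4 epithelial miRNAs was 2007 to 3092 in stage IIIa and 3243 to 7154 in stage IIIb, with 0 of 4 called and none at 0. The part of either in the stage values of the 31 was not tested. Sums of the white blood cell, smooth muscle, endothelial, gonadal somatic and oocyte lists overlapped between the stages, and the gonadal somatic strands of miR-202 summed to 302601 to 626406 over the 6 samples. The liver miRNA dre-miR-122, at 0 in 1 sample, ran from 0 to 111.9 in stage IIIa and from 71.8 to 783.5 in stage IIIb. The skeletal muscle miRNA dre-miR-133a-3p ran from 71.7 to 113.1 in stage IIIa and from 32.1 to 160.5 in stage IIIb. Both overlapped between the stages.

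The called miRNA was the carp-named ccr-mir-734-p5, the 5′ arm of miR-734, a miRNA listed in fish. Its normalized counts were 9.46, 32.4 and 17.7 in stage IIIa and 89.0, 100.4 and 230.7 in stage IIIb, from 6, 59 and 33 and 126, 121 and 659 recovered reads. Every stage IIIb sample lay above every stage IIIa sample. The log2 fold change was 2.78 (SE 0.64, adjusted p = 0.0252). By recovered reads ccr-mir-734-p5 reached the study's minimum of 100 in stage IIIb alone. Recovered reads are not shown to be the counts to which the study applied that minimum. The p-value does not allow for selection by such a minimum. The call was lost in 5 of the 6 fits that left out a sample, where the adjusted p ran from 0.0462, without stage IIIa replicate 3, to 0.152, without stage IIIb replicate 3, while the log2 fold change stayed between 2.35 and 3.20. With limma's voom weights on recovered reads it was 2.36 (adjusted p = 0.0837).

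Its other arm dre-miR-734 also rose. Its normalized counts were 534, 659 and 261 in stage IIIa and 1432, 1651 and 2457 in stage IIIb, again without overlap, with a log2 fold change of 1.99 (SE 0.41, adjusted p = 0.0180). The ratio of the 5′ arm to dre-miR-734 was 1.77%, 4.91% and 6.80% in stage IIIa and 6.22%, 6.08% and 9.39% in stage IIIb. The stages overlapped in this ratio, which differed by 0.86 on the log2 scale (exact permutation test, two-sided, p = 0.3).

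The catfish-named ipu-miR-7550 stood at 37.8, 136.6 and 146.2 (stage IIIa) and at 340.4, 240.7 and 200.6 (stage IIIb) normalized counts, with no overlap. Its log2 fold change of 1.47 (SE 0.54, adjusted p = 0.207) did not pass the adjusted threshold, and the value was 0.84 without stage IIIa replicate 1, the sample with the lowest count, and 0.72 with voom on recovered reads (adjusted p = 0.451). The other miRNAs with no dre- partner had overlapping stages. For efu-mir-9277-p3 the counts were 34.7, 46.6 and 40.9 in stage IIIa and 34.6, 116.2 and 84.0 in stage IIIb.

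Among the miR-22a strands, the guide dre-miR-22a-3p rose from 63539, 116201 and 91747 to 176927, 273005 and 315083 normalized counts. Its log2 fold change was 1.50 (SE 0.34, adjusted p = 0.0252). Its annotated 5′ arm dre-miR-22a-5p went from 163.9, 437.6 and 305.3 to 662, 956 and 871, without overlap, and its log2 fold change of 1.55 (SE 0.41) had an adjusted p of 0.0590. The carp-named ccr-mir-22a-p5, with 2 base differences from it, had 56.7, 164.5 and 99.98 in stage IIIa and 139.1, 235.7 and 281.8 in stage IIIb. Its stages overlapped by 1 sample each, and its log2 fold change was 1.09 (SE 0.49, adjusted p = 0.314). The ratio of ccr-mir-22a-p5 to dre-miR-22a-5p was 34.6%, 37.6% and 32.7% in stage IIIa and 21.0%, 24.7% and 32.4% in stage IIIb, lower in every stage IIIb sample. The listed precursor of ccr-mir-22a-p5 also held dre-miR-22a-3p, at 0 mismatches. So ccr-mir-22a-p5 and dre-miR-22a-5p are not shown to come from the same hairpin.

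The miR-29 family is known for targeting collagens and other matrix mRNAs. Here dre-miR-29a rose from 1246, 1523 and 1606 to 3001, 5188 and 5361 normalized counts, a log2 fold change of 1.59 (SE 0.34, adjusted p = 0.0216). For mdo-miR-29a-3p, the same sequence less 1 base, the counts were 94.6, 74.0 and 84.9 in stage IIIa and 108.1, 195.0 and 213.2 in stage IIIb, without overlap. Its log2 fold change was 0.96 (SE 0.43, adjusted p = 0.314). As a percent of dre-miR-29a it stood at 7.59%, 4.86% and 5.29% in stage IIIa and 3.60%, 3.76% and 3.98% in stage IIIb. The shifted ipu-mir-29a-p3 had 121.3, 219.4 and 206.9 in stage IIIa and 150.4, 517 and 260.8 in stage IIIb, with overlap, and a log2 fold change of 0.62 (SE 0.49, adjusted p = 0.588). Both therefore had smaller fold changes than dre-miR-29a, with ratios to it lower by 0.62 and 0.96 on the log2 scale in stage IIIb (exact permutation test, two-sided, p = 0.1 and p = 0.2 before adjustment).

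On the other arm of miR-29a, dre-mir-29a-p5 rose from 53.6, 87.2 and 73.6 to 258.5, 603 and 399.8 normalized counts, a log2 fold change of 2.48 (SE 0.43, adjusted p = 0.00532). It is the denominator of the 2 miR-29a other-arm ratios that stood apart between the stages.

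The anole-named aca-miR-30a-5p, 1 base from dre-miR-30d, reached 40.2, 51.0 and 44.6 in stage IIIa, then 52.3, 64.7 and 66.9 normalized counts in stage IIIb. The stages did not overlap, by a gap of about 1 normalized count. The log2 fold change was 0.43 (SE 0.50, adjusted p = 0.702), and 0.12 with totals set equal. Its ratio to dre-miR-30d overlapped between the stages. The sequence is also 1 base from dre-miR-30e-5p, and its precursor held dre-miR-30e-3p on the other arm at 0 mismatches. Against dre-miR-30e-5p the ratio was 0.0884%, 0.148% and 0.136% in stage IIIa and 0.235%, 0.178% and 0.163% in stage IIIb, without overlap. The difference was 0.65 on the log2 scale (exact permutation test, two-sided, p = 0.1, the smallest that 3 against 3 allows). This second ratio was not among those adjusted together. A ratio to dre-miR-30a-5p alone, which shares the seed, was not taken.

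**Figure D3:**
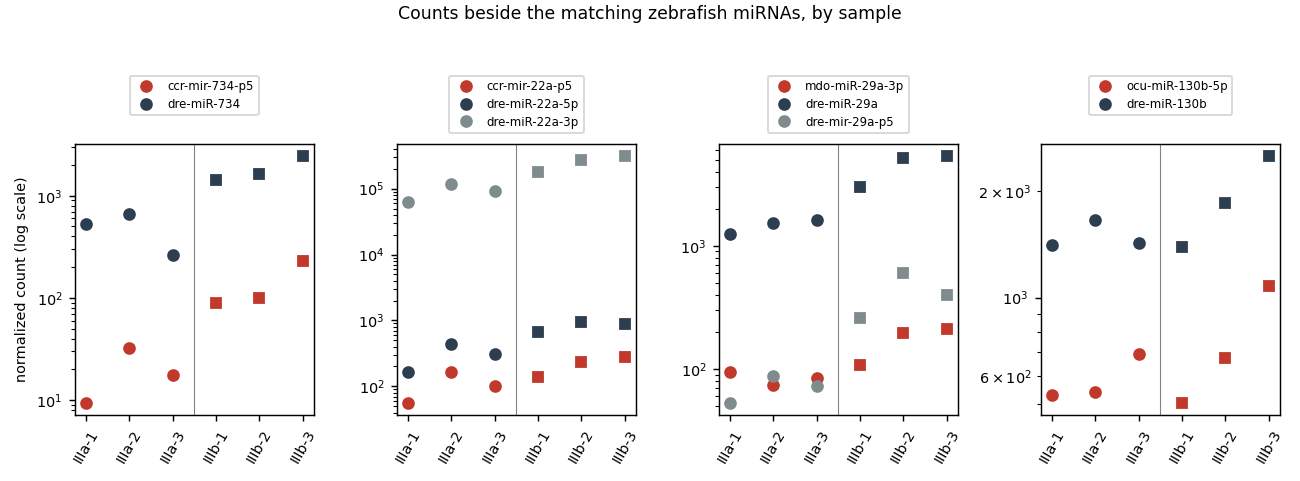
Normalized counts (log scale) by sample of 4 foreign-named miRNAs and of the dre- miRNAs matched to the same strand or the other arm. Circles mark stage IIIa and squares stage IIIb. For ccr-mir-734-p5 and mdo-miR-29a-3p, as for dre-miR-734, dre-miR-29a and both dre-miR-22a arms, every square lies above every circle, while ccr-mir-22a-p5 and ocu-miR-130b-5p overlap.

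Of the 31 log2 fold changes 24 (77.4%) were above 0, against 57.8% of all 289. With totals set equal there were 14 (45.2% against 40.1%) and with median-of-ratios scaling 18 (58.1% against 48.8%), so the number above 0 followed the scaling. The median over all 289 miRNAs was itself 0.15 as deposited, -0.16 with equal totals and -0.02 with median of ratios, and that of the 31 was 0.29, -0.02 and 0.12. By group, 10 of 11 same-strand miRNAs, 11 of 17 with the other arm only and 3 of 3 with neither were above 0 as deposited. The lowest members were ipu-miR-223 and xla-miR-143-5p. For ipu-miR-223, the 5′ arm of a miRNA of myeloid cells, counts were 189.1, 35.6 and 100.5 in stage IIIa and 14.8, 32.4 and 89.3 in stage IIIb, and for xla-miR-143-5p they were 646, 445.3 and 458.5 and 249.3, 283.9 and 613. In both the stages overlapped.

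The methods of the study ask for at least 100 counts in every sample of 1 stage. By recovered reads 10 of the 31 met this in both stages, 11 in stage IIIb alone, 0 in stage IIIa alone and 10 in neither. The study lists all 31, including the 10 that met it in neither stage. Recovered reads are therefore not shown to be the counts to which the study applied its minimum. Which of the 31 met that minimum in stage IIIb alone in the study's own counts was not tested. All 4 miRNAs at an unadjusted p of 0.05 or less were among the 11. Of the 11, 10 had a log2 fold change above 0, and a minimum met in stage IIIb alone can favour miRNAs that are higher there, so these counts are given as a description. The p-values of the 4 carry the same limit.

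**Figure D4:**
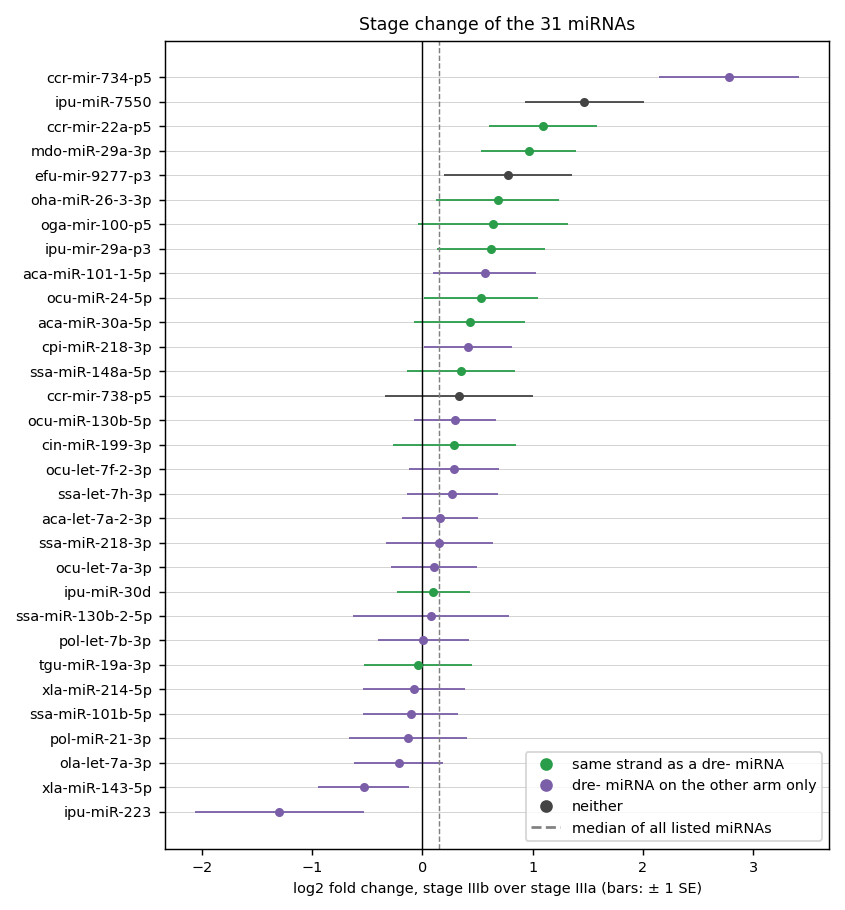
Log2 fold change, stage IIIb over stage IIIa, of the 31 miRNAs with bars of 1 SE from limma (3 samples a stage), coloured by whether a dre- miRNA lies on the same strand, on the other arm only, or neither. The point of ccr-mir-734-p5 lies farthest right at 2.78, and the dashed line marks the median of all listed miRNAs, 0.15.

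Between the stages, 11 of the 37 ratios to a dre- miRNA did not overlap, 8 of 26 to the other arm (30.8%) and 3 of 11 on the same strand. Among the 40 dre- arm pairs, the share that did not overlap was 27.5%. Without stage IIIa replicate 2 the 11 became 17. All 6 let-7 pairs of the 31 were among the 8, and the ratio of dre-let-7j-p3 to dre-let-7j did not overlap between the stages either. The ratios of pol-let-7b-3p (-0.42 on the log2 scale), ssa-let-7h-3p (-0.30), aca-let-7a-2-3p (-0.39), ocu-let-7a-3p (-0.44) and ola-let-7a-3p (-0.76) were lower in stage IIIb, and that of ocu-let-7f-2-3p to dre-let-7f was higher (0.42). In single samples pol-let-7b-3p went from 13.2%, 12.9% and 15.6% of dre-let-7b to 9.66%, 9.97% and 11.7%, and ocu-let-7f-2-3p from 2.21%, 2.62% and 2.06% of dre-let-7f to 2.65%, 3.10% and 3.50%. The opposite sign rests on ocu-let-7f-2-3p alone, whose difference was 0.12 with summed counterparts, and 3 of the other pairs share dre-let-7a. The ratio of oga-mir-100-p5 to dre-miR-100-5p was higher in stage IIIb as well (0.67). All 11 had the smallest p of an exact permutation test (0.1, two-sided), which was 0.336 after adjustment over the 37 ratios, so none passed.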

How the data were processed

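Small RNA was sequenced by the authors from 3 pools of stage IIIa and 3 of stage IIIb follicular cells. They processed the reads with ACGT101-miR, aligned unique sequences to zebrafish and then to other species' precursors in miRBase 22.0, and scaled each library by its size. What they deposited is the resulting normalized count, treated here as a signal. Nothing in the sources used here says how reads fitting several miRNAs were shared. Reads were recovered as value over the step of 1 read (tolerance 0.01), and 83.2% to 86.1% of values under 400 were whole, so recovered reads served only descriptions and 1 alternative. Recovered reads summed over the 289 listed miRNAs, which are not all reads of a library, were 1129114 to 9045233. This sets how precisely rare miRNAs are measured.

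Stages were compared with limma 3.58.1 (R 4.3.3) on log2(normalized count + 1), with an intensity-dependent prior variance (trend), two-sided and unfiltered, and single values with exact permutation tests (scipy 1.17.1). Same-strand counterparts needed 15 shared bases, at most 3 mismatches and a shift of at most 6 bases. Other-arm counterparts needed 18 bases within the precursor that the study lists, also with at most 3 mismatches. Precursors were folded with RNAfold 2.7.2. Mature sequences are those of the deposited files. Every member is named. Fold changes are given for those at p of 0.05 or less and for those sharing a seed or at least 15 bases with a called dre- miRNA. They are also given for ipu-miR-7550 and aca-miR-30a-5p, which were listed beforehand as changed in the study of these same samples. Ratios are given for the extremes, for all same-strand pairs and for pairs whose stages did not overlap. The procedure was tested on simulated data. Members and lists were chosen with earlier results of these data known. The alternatives were other pseudocounts, filters, scalings, fits and sums, and leaving out each replicate.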

Additional observations from a re-analysis of the deposited data

How the results depend on the processing

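The count of 1 miRNA at an adjusted p under 0.05 became 0 with a mean of at least 100 (ccr-mir-734-p5 is then not tested), with the replicate block, with voom on recovered reads and with untransformed counts, where 0 of all 289 were called. It ranged from 0 to 1 without each replicate in turn. The count of 4 at an unadjusted p became 1 with the mean filter, 2 with equal totals (1 higher, 1 lower), 2 with voom and 2 untransformed, and ranged from 1 to 5 without each replicate (2 higher and 2 lower without stage IIIb replicate 3). The deviations of same-numbered samples correlated at 0.10, 0.28 and -0.03, with a mean of 0.12 against -0.06 for different numbers. With 3 samples a stage this cannot tell whether the replicate numbers pair the samples. The replicate block left 3 at an unadjusted p, and 1 of 3 stage IIIa and 2 of 3 stage IIIb samples correlated best with their own number. Without the highest member the share of counts was 0.327% in place of 0.384%, and it ranged from 0.372% to 0.397% without each replicate. The number of ratios that did not overlap between stages was 8 with summed counterparts and 13 with a pseudocount of 10, and ranged from 12 to 17 without each replicate, where fewer samples have to separate. None of the 192 alternative values of 6 fold changes and 11 ratio differences reversed, which was partly fixed in advance. A fit with no trend, with the replicate block or with the mean filter leaves a fold change as it was. The block likewise leaves a ratio difference as it was. The 11 were picked for stages that did not overlap, so leaving out 1 replicate could not reverse them. Of 296 alternative mean ratios, 16 moved by more than their SD. The cause of these differences was not tested.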
